A study of Mus musculus with 24 samples.

Results

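The 8 genes described here, Pdgfra, Tcf21, Dcn, Lum, Postn, Thy1, Dpt and Tnc, are used as markers of cardiac fibroblasts. They were chosen by name, with earlier results of these data known. Of these, 6 stand for fibroblast identity (Tcf21, Pdgfra, Thy1, Dcn, Lum and Dpt) and 2 for fibroblast activation (Postn and Tnc). All 8 were found among the 15667 genes listed for uninjected hearts and among the 15327 listed for injected hearts, and all 8 passed the filter on low values in both tables. Hearts of mice at postnatal day 7.5 were compared between a germline knockout of Xinβ (Xirp2), a protein of the intercalated disc, and wild-type littermates. The 8 uninjected libraries were 4 Xinβ KO and 4 WT, and the strain was kept on a C57BL6 background. Another 16 libraries came from pups injected under the skin at postnatal day 1 with AAV9 carrying GFP (KO/GFP and WT/GFP) or a FLAG-tagged active human YAP with the S127A change (KO/YAP and WT/YAP), 4 hearts each.

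The labels give the tissue as heart apex, and the methods as ventricles. In the knockout, part of the gene was replaced by a LacZ-Neo cassette in every cell of the animal, fibroblasts included. Both vectors were driven by the chicken cardiac troponin T promoter, which is active in cardiomyocytes, so fibroblasts were not the cells that the vector was designed to reach. YAP is the transcriptional coactivator that the Hippo kinases restrain, and the S127A form lacks the phosphorylation site through which they hold it in the cytoplasm.

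Cardiac fibroblasts descend mainly from the epicardium, fill the space between cardiomyocytes and lay down the interstitial matrix, which expands in the first weeks after birth. Tcf21 is a transcription factor of the epicardial and fibroblast lineage, Pdgfra is a receptor for platelet-derived growth factor on resident fibroblasts, and Thy1 is a surface glycoprotein of fibroblasts that T cells and neurons also carry. Decorin (Dcn) and lumican (Lum) are small leucine-rich proteoglycans that bind collagen fibrils, dermatopontin (Dpt) is a small matrix protein that binds decorin, and periostin (Postn) and tenascin C (Tnc) are secreted matricellular proteins that mark fibroblasts of growing or injured tissue.

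The libraries held 20490875 to 31154155 reads on listed genes in the uninjected hearts and 15015038 to 19444404 in the injected hearts, and the lowest value of any of the 8 genes rested on 168 reads. Values are CPM as deposited, that is read counts scaled to the size of each library. The uninjected and injected tables were sequenced and normalized separately, so levels are compared only within a table. Xirp2 lay between 0 and 0.972 CPM in the 12 KO libraries and between 56.0 and 168 CPM in the 12 WT libraries. The summed level of 8 cardiomyocyte markers was 52280 to 87460 CPM. Of 6 T-cell markers, which bear on Thy1, none was listed in the uninjected table, and Cd4 alone was listed in the injected table, at 0 to 1.79 CPM. One library stood apart from its group. For 10 proliferation genes the summed level was 65.2, 95.9 and 131 CPM in 3 uninjected KO hearts and 615 CPM in replicate 4, beside 461 to 601 CPM in the WT hearts, and results that rest on that library are given without it as well.

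Per kilobase of exon, counting every annotated exon of a gene, 4 matrix genes were the most abundant of the 8 in uninjected WT hearts. These lengths were 1724 bases for Dpt, 8702 for Postn, 5838 for Dcn and 2448 for Lum. The order between genes depends on these lengths and was not checked with the lengths of single transcripts. The level was 116 ± 4.63 CPM per kb for Dpt, 96.9 ± 5.83 for Postn, 57.6 ± 3.15 for Dcn and 52.2 ± 0.726 for Lum (SD, n = 4 for each). The remaining genes were lower, at 9.64 ± 1.07 CPM per kb for Thy1, 9.34 ± 0.0752 for Tcf21, 7.15 ± 0.364 for Pdgfra and 5.74 ± 0.521 for Tnc. Thy1 and Tcf21 did not differ beyond their spread, and the other neighbours in this order did not overlap between libraries. In WT/GFP hearts the first 4 kept these places, at 100 ± 10.3 CPM per kb for Dpt, 84.6 ± 7.66 for Postn, 54.0 ± 4.43 for Dcn and 44.4 ± 3.80 for Lum. In KO/GFP hearts Postn (46.9 ± 20.7 CPM per kb), Dpt (45.3 ± 5.13) and Dcn (42.6 ± 5.58) lay within each other's spread, and Lum was at 25.4 ± 4.08.

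The promoters of Dpt and Postn are shown because these genes had the largest log2 differences among the members called between KO/GFP and WT/GFP. RefSeq promoters on GRCm38.p6 matched 5 of the 8 genes, by symbol, and Dcn, Lum and Thy1 had none. Each sequence is the 250 bases before a RefSeq transcription start, 5′ to 3′, and capitals mark the motifs CAGCTG and TATAAA. For Dpt it is chr1:164796413-164796662 on the plus strand, and for Postn chr3:54360857-54361106 on the plus strand.

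Dpt: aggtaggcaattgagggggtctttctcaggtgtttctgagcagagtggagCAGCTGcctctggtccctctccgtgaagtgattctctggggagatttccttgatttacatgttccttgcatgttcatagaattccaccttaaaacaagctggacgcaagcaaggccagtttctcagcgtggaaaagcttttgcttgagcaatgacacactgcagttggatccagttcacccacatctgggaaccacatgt

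Postn: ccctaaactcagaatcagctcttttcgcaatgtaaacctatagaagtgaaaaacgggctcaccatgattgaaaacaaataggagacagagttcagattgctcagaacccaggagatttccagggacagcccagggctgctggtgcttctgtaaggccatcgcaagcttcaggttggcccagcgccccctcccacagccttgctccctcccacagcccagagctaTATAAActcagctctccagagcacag

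Both strands of each 300-base window, 250 bases before to 50 after a start, were searched for 5 motifs. The TEAD site, of the factors through which YAP acts on DNA, was CATTCC, and 14.7% of all 32851 RefSeq promoters of this length held it. The E-box, of the kind that bHLH factors such as Tcf21 bind, was CAGCTG, held by 16.3%. The SMAD box was CAGACA, held by 21%, the AP-1 site was TGANTCA, held by 7.81%, and the TATA box was TATAAA, held by 13.6%. With the start at 0, Postn held TATAAA at -26, and Dpt held E-boxes at -200 and 6. Dpt also held the string TATAAA at 12, which is after the start. A second Postn start and the promoters of Pdgfra and Tcf21 held none of the 5 motifs. The Tnc windows overlap each other and held the same TATAAA site, at -126 and -205 from their starts, and the same SMAD box, at 8 and -71. A further SMAD box lay at 39 in the second Tnc window. The TEAD site was in none of the 7 windows, and no matches overlapped within a window. Single matches are common in promoters.

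**Figure D1:**
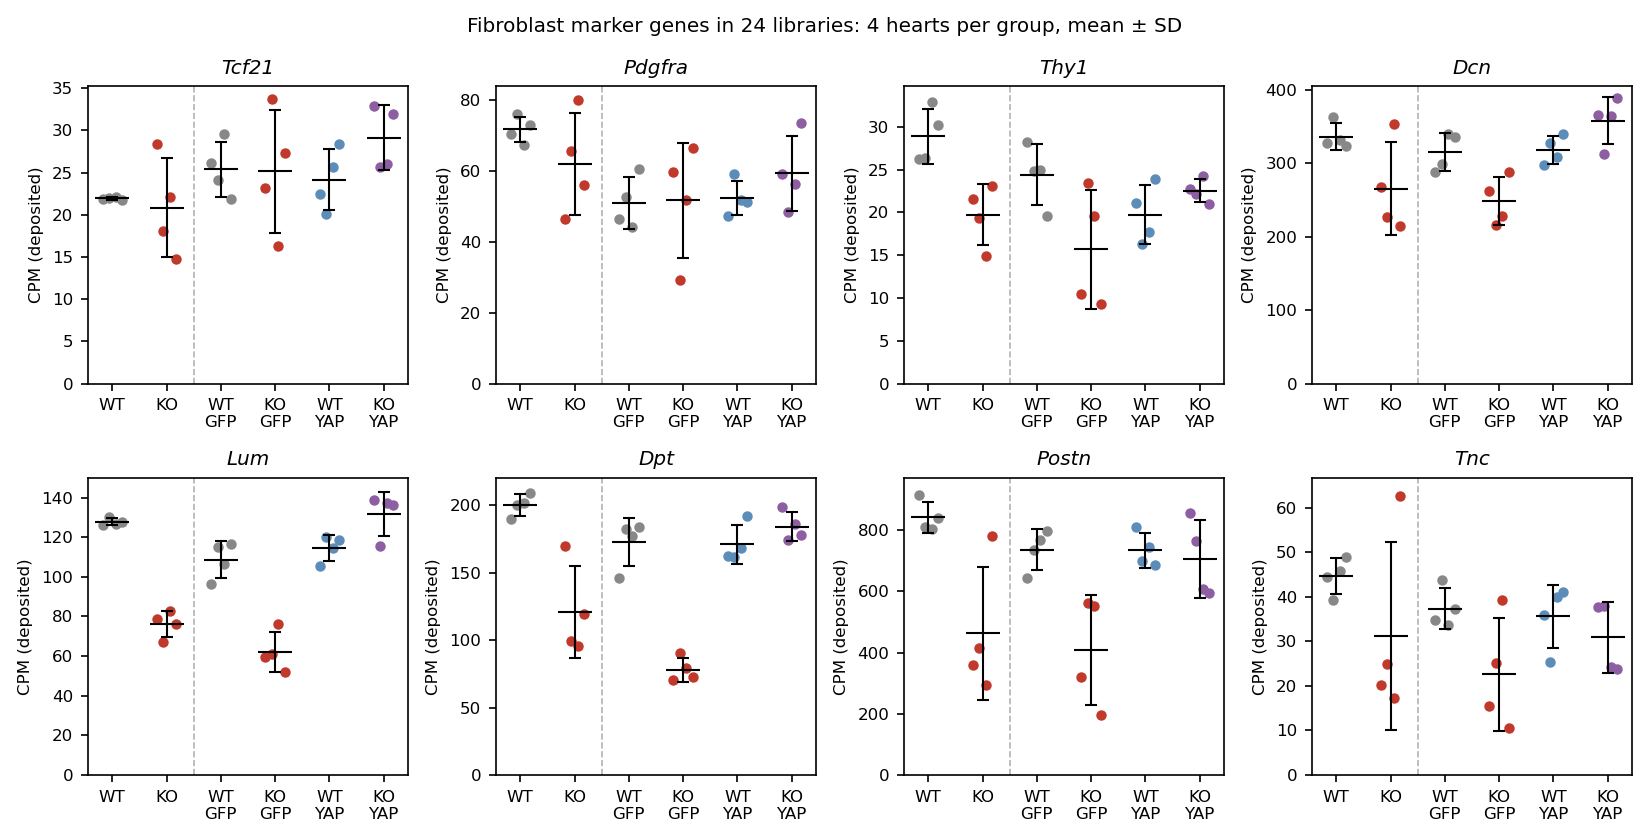
Deposited CPM (y axis, linear, from 0) of the 8 genes in each library by genotype and vector (x axis), with 4 points per group and the mean ± SD in black. The dashed line separates the uninjected table from the injected one. Lum lies between 52.1 and 75.9 CPM in KO/GFP hearts and at 96.4 CPM or more in every other injected heart.

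In uninjected hearts limma called 2 of the 8 genes lower at an adjusted p under 0.05, Lum and Dpt, and none higher, where 3.46% of all 15598 tested genes were called lower and 3.23% higher. In injected hearts 4 of the 8 were called lower in KO/GFP than in WT/GFP, Dpt, Lum, Postn and Dcn, and none higher, where 7.22% of 14597 genes were called lower and 6.43% higher. Leaving out 1 library at a time gave 1 to 5 members called in uninjected hearts and 3 to 5 in KO/GFP against WT/GFP. The fitted difference was negative for all 8 genes in both comparisons, with a median log2 difference of -0.61 in uninjected and -0.75 in injected hearts, beside 0.00 and -0.01 over all tested genes, although that of Pdgfra in injected hearts was 0.03 by edgeR and DESeq2. In these bulk samples fewer fibroblasts and less RNA per fibroblast cannot be told apart. Differences are on the scale of log2(CPM + 1), and n is 4 hearts in each group.

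Lum (ENSMUSG00000036446) showed the steadiest difference. The uninjected WT hearts had 126.3, 130.3, 126.8 and 127.9 CPM of Lum and the uninjected KO hearts 78.6, 67.2, 82.9 and 76.4 CPM. Under the GFP vector the WT hearts had 96.4, 115, 106 and 117 CPM and the KO hearts 59.5, 61.0, 75.9 and 52.1 CPM. In both tables every KO heart lay below every WT heart. The log2 difference was -0.74 ± 0.09 (SE, limma adjusted p = 0.00313) without injection and -0.80 ± 0.11 (limma adjusted p = 0.000192) with the GFP vector, so that the KO means were 0.597 and 0.572 of the WT means. Groups that did not overlap, with KO lower, were found for 4 of the 8 genes in uninjected hearts (8.43% of all genes) and for 3 of the 8 in GFP hearts (7.95%).

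Dpt (ENSMUSG00000026574, chr1:164796644-164824266, plus strand) was lower in both tables and had the larger difference in the injected one. The 4 uninjected WT hearts had 190.0, 200.0, 202 and 209 CPM of Dpt, and the KO hearts had 169.8, 99.3, 95.5 and 119.5 CPM. With the GFP vector the WT hearts had 146, 183, 177 and 184 CPM and the KO hearts 70.5, 90.1, 79.0 and 72.5 CPM. The groups did not overlap in either table, although uninjected KO replicate 1 came near the WT range. The log2 difference was -0.76 ± 0.17 (SE, limma adjusted p = 0.0328) in uninjected and -1.13 ± 0.10 (limma adjusted p = 4e-06) in injected hearts, 7th of 14597 genes by p. Leaving out uninjected KO replicate 2 or 3, or any 1 of the uninjected WT hearts, gave limma adjusted p-values of 0.0823 to 0.096 for the uninjected difference, and leaving out KO replicate 1 or 4 gave 0.0018 and 0.0375. With replicate numbers as a block in the fit, the uninjected difference had a limma adjusted p of 0.0819.

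Dcn, the neighbour of Lum on chromosome 10, differed less. Dcn (ENSMUSG00000019929, chr10:97479609-97518143 on GRCm38, as for the coordinates of the other genes) ends 46984 bases before Lum begins (chr10:97565128-97572703), both on the plus strand. Dcn had 327.3, 363.3, 331.1 and 322.9 CPM in uninjected WT hearts and 267.1, 226.5, 353.7 and 215 CPM in KO hearts. For the WT/GFP hearts the values were 288, 298, 339 and 336 CPM, and for the KO/GFP hearts 262, 216, 229 and 288 CPM. Uninjected KO replicate 3 lay within the WT range, and KO/GFP replicate 4 (288.2 CPM) just above the lowest WT/GFP heart (288.1 CPM). The log2 difference was -0.37 ± 0.15 (SE, limma adjusted p = 0.194) in uninjected hearts and -0.35 ± 0.10 (limma adjusted p = 0.0272) in injected hearts. The first was called without KO replicate 3 (-0.51, limma adjusted p = 0.0446). The second was not called without KO/GFP replicate 2 or 3 or WT/GFP replicate 3 or 4 (limma adjusted p = 0.053 to 0.0752), nor when only these 2 groups entered the fit (limma adjusted p = 0.0986).

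Within a library, Lum was therefore low relative to Dcn. The ratio of Lum to Dcn was 0.386, 0.359, 0.383 and 0.396 in uninjected WT hearts and 0.294, 0.297, 0.235 and 0.355 in KO hearts, without overlap. It was 0.335, 0.385, 0.314 and 0.348 in WT/GFP hearts and 0.228, 0.282, 0.332 and 0.181 in KO/GFP hearts, which overlapped through KO/GFP replicate 3. In the YAP hearts it was 0.349 to 0.372 for WT and 0.350 to 0.379 for KO. This ratio was chosen after its values were seen and was not tested.

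The activation markers Postn (ENSMUSG00000027750, chr3:54361109-54391037, plus strand) and Tnc (ENSMUSG00000028364, chr4:63959785-64047015, minus strand) had lower means and a wide spread in the knockouts. Postn was at 915, 811, 804 and 841 CPM in uninjected WT hearts and at 359.8, 415.2, 295.2 and 780.4 CPM in KO hearts. After injection of GFP the WT hearts had 644, 736, 768 and 798 CPM and the KO hearts 321.8, 561.2, 552.9 and 195.7 CPM. Every KO heart was below every WT heart in both tables, but uninjected KO replicate 4 was close to the WT hearts, and the KO/GFP hearts varied with a CV of 44.1% against 9.05% in WT/GFP. The log2 difference of Postn was -0.96 ± 0.26 (SE, limma adjusted p = 0.0579) in uninjected and -0.97 ± 0.24 (limma adjusted p = 0.0146) in injected hearts. Without uninjected KO replicate 4 the first was -1.25 (limma adjusted p = 0.000754). With only KO/GFP and WT/GFP in the fit the second had a limma adjusted p of 0.0819.

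Tnc was at 44.5, 39.2, 45.8 and 48.9 CPM in uninjected WT hearts and at 20.2, 24.8, 17.3 and 62.6 CPM in KO hearts. With GFP the values were 34.8, 43.8, 33.7 and 37.3 CPM for WT and 15.5, 25.2, 39.3 and 10.6 CPM for KO. Uninjected KO replicate 4 lay above all WT hearts and KO/GFP replicate 3 within their range, while the other KO hearts lay below all WT hearts of their table. The log2 difference was -0.69 ± 0.34 (SE, limma adjusted p = 0.28) and -0.85 ± 0.29 (limma adjusted p = 0.0624), so neither was called. Tnc was called without uninjected KO replicate 4 (-1.08, limma adjusted p = 0.00217), and in the injected hearts without KO/GFP replicate 2 (-0.95, limma adjusted p = 0.0454) or replicate 3 (-1.16, limma adjusted p = 0.00528).

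Thy1 (ENSMUSG00000032011, chr9:44043384-44048579, plus strand) came close to the threshold in both tables. Uninjected WT hearts had 26.2, 26.3, 32.8 and 30.2 CPM of Thy1 and KO hearts 21.5, 19.3, 14.9 and 23.1 CPM, without overlap. WT/GFP hearts had 28.21, 24.82, 24.95 and 19.61 CPM and KO/GFP hearts 10.49, 23.47, 19.60 and 9.25 CPM, which overlapped through KO/GFP replicate 2. The log2 difference was -0.54 ± 0.15 (SE, limma adjusted p = 0.0638) and -0.69 ± 0.22 (limma adjusted p = 0.0501). It was called in uninjected hearts without KO replicate 1 (limma adjusted p = 0.0475) or replicate 4 (0.0316), and in injected hearts without KO/GFP replicate 2 (0.0052), KO/GFP replicate 3 (0.026) or WT/GFP replicate 4 (0.0481).

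Pdgfra (ENSMUSG00000029231, chr5:75152292-75198215, plus strand) and Tcf21 (ENSMUSG00000045680, chr10:22817281-22820174, minus strand) were not called in either comparison. Pdgfra ranged from 67.4 to 75.9 CPM in uninjected WT hearts and from 46.3 to 79.9 CPM in KO hearts, and from 44.0 to 60.4 CPM in WT/GFP and 29.2 to 66.5 CPM in KO/GFP. Tcf21 ranged from 21.7 to 22.1 CPM in uninjected WT and from 14.7 to 28.4 CPM in KO, and from 21.9 to 29.5 CPM in WT/GFP and 16.3 to 33.7 CPM in KO/GFP. For both genes the KO hearts lay on either side of the WT hearts. The log2 difference of Pdgfra was -0.23 (95% interval -0.59 to 0.12) in uninjected and -0.03 (-0.44 to 0.39) in injected hearts. That of Tcf21 was -0.11 (-0.51 to 0.29) and -0.05 (-0.42 to 0.32). These intervals include falls of the size seen for Dcn. The sign itself was not stable, since Pdgfra in the injected hearts was 0.03 by edgeR and DESeq2, 0.22 without KO/GFP replicate 2 and 0.06 without WT/GFP replicate 4. Tcf21 was 0.04 without uninjected KO replicate 4, and in injected hearts 0.13 without KO/GFP replicate 3 and 0.02 without WT/GFP replicate 3.

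**Figure D2:**
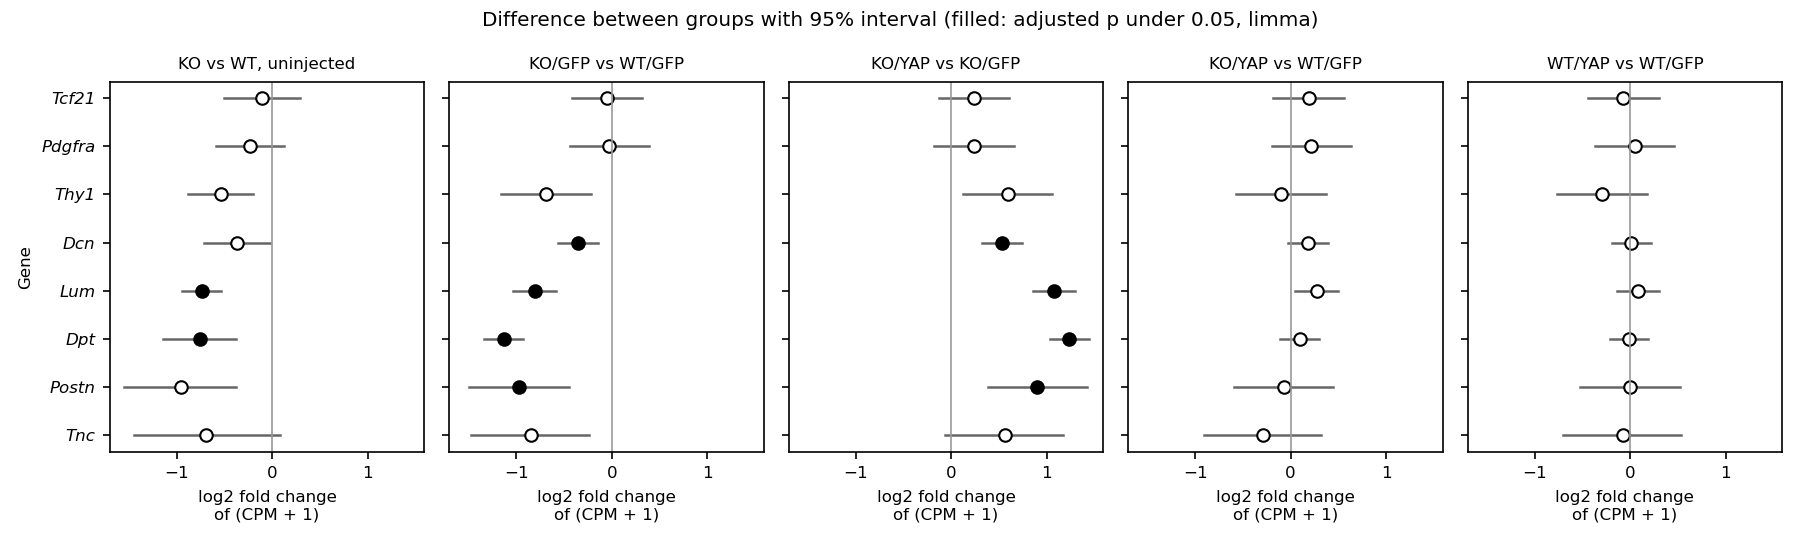
Log2 fold change of CPM + 1 (x axis) for each gene (y axis) in 5 comparisons, with the 95% interval, and filled points where limma called the gene. In KO/GFP against WT/GFP and in KO/YAP against KO/GFP the 4 filled points are Dcn, Lum, Dpt and Postn, at -1.13 to -0.35 and at 0.53 to 1.23, and no point is filled for KO/YAP or WT/YAP against WT/GFP.

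Active YAP was then compared with GFP in knockout hearts, which asks whether the vector moved the same markers. In KO/YAP hearts 4 of the 8 genes were higher than in KO/GFP hearts, Dpt, Lum, Dcn and Postn, and none was lower, where limma called 7.85% of all genes higher and 6.92% lower. Groups that did not overlap, with KO/YAP higher, were found for these 4 genes (9.02% of all genes). All 8 fitted differences were positive, with a median of 0.57 on the log2 scale beside 0.01 over all tested genes. This comparison and that of KO/GFP with WT/GFP share the 4 KO/GFP libraries, so the values of the 2 comparisons are not independent of each other.

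Dpt was at 198, 174, 186 and 178 CPM in KO/YAP hearts, against 70.5 to 90.1 CPM in KO/GFP, a ratio of means of 2.36. Lum was at 139, 115, 137 and 136 CPM, against 52.1 to 75.9 CPM, a ratio of 2.12. Dcn was at 365.8, 313, 364.8 and 388.7 CPM, against 216 to 288 CPM, a ratio of 1.44. For these 3 matrix genes the hearts with the YAP vector were all above those with GFP. The log2 difference was 1.23 ± 0.10 for Dpt (SE, limma adjusted p = 1.31e-06), 1.08 ± 0.11 for Lum (limma adjusted p = 1.27e-05) and 0.53 ± 0.10 for Dcn (limma adjusted p = 0.0022). Dpt was 6th and Lum 17th of 14597 genes by p, and all 3 remained called without each library in turn.

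Postn was at 855, 766, 607 and 596 CPM in KO/YAP hearts, a ratio of 1.73 to KO/GFP, with a log2 difference of 0.90 ± 0.24 (SE, limma adjusted p = 0.0211). It was not called without KO/GFP replicate 1, KO/YAP replicate 1 or KO/YAP replicate 2 (0.80 to 0.85, limma adjusted p = 0.0571 to 0.0676), nor with only these 2 groups in the fit (limma adjusted p = 0.0983). Thy1 was at 22.7, 22.2, 24.3 and 20.9 CPM, a narrow range beside the 9.25 to 23.5 CPM of KO/GFP, with a log2 difference of 0.59 ± 0.22 (limma adjusted p = 0.0878). Without KO/GFP replicate 2 or 3 Thy1 was called (limma adjusted p = 0.0118 and 0.0452). Tnc was at 37.7, 37.9, 24.2 and 23.9 CPM, with a log2 difference of 0.56 ± 0.29 (limma adjusted p = 0.211), and was called without KO/GFP replicate 3 (0.87, limma adjusted p = 0.0264). Pdgfra lay between 48.3 and 73.6 CPM and Tcf21 between 25.7 and 32.9 CPM, with log2 differences of 0.24 (95% interval -0.18 to 0.66) and 0.24 (-0.13 to 0.61). Without KO/GFP replicate 2 that of Pdgfra was -0.01.

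In WT hearts the YAP vector did not move these genes detectably. The WT/YAP hearts had 161 to 192 CPM of Dpt, 105 to 120 CPM of Lum, 298 to 340 CPM of Dcn and 686 to 810 CPM of Postn, all overlapping WT/GFP. Groups failed to overlap for none of the 8 genes, against 4.32% of all genes. None of the 8 was called, nor was any of the 14597 genes by limma (0% of all genes), while 1011 genes (6.93%) had an unadjusted p under 0.05, edgeR called 0 and DESeq2 11. The 95% intervals of the log2 difference were -0.21 to 0.19 for Dpt, -0.14 to 0.30 for Lum, -0.19 to 0.22 for Dcn and -0.52 to 0.52 for Postn. They were wider for Thy1 (-0.77 to 0.18, estimate -0.30) and Tnc (-0.70 to 0.53, estimate -0.08).

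The difference between the vector effects in KO and WT hearts was tested as an interaction. It was called for 3 of the 8 genes, all with the larger rise in KO hearts, where 3.8% of all genes were called in that direction. The interaction was 1.24 ± 0.14 on the log2 scale for Dpt (SE, limma adjusted p = 0.000106), 1.00 ± 0.15 for Lum (limma adjusted p = 0.00136) and 0.51 ± 0.14 for Dcn (limma adjusted p = 0.0359). Dcn lost the call without any 1 of 11 libraries (limma adjusted p = 0.0516 to 0.0692), namely KO/GFP replicates 1 and 3, KO/YAP replicates 1, 3 and 4, WT/GFP replicates 2, 3 and 4 and WT/YAP replicates 1, 2 and 3, and in limma without the trend (0.0545). Postn (0.90 ± 0.35, limma adjusted p = 0.124), Thy1 (0.89 ± 0.32, limma adjusted p = 0.0997) and Tnc (0.64 ± 0.41, limma adjusted p = 0.363) were not called. Without KO/GFP replicate 2 Thy1 (1.10, limma adjusted p = 0.02) and Postn (1.09, limma adjusted p = 0.0435) were called as well.

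KO/YAP hearts were set against hearts with an intact Xinβ gene to ask how near the levels came, with the WT/GFP libraries being those of the comparisons above. None of the 8 genes was called against WT/GFP, where limma called 0.0206% of all genes, or against WT/YAP, where it called 0.0411%. The groups overlapped for all 8 genes in both comparisons, where 4.45% and 9.23% of all genes did not overlap. The differences from WT/YAP ran from -0.21 for Tnc to 0.26 for Tcf21 (limma adjusted p = 0.487 to 0.934). One of the 8, Lum, had an unadjusted p under 0.05 against WT/GFP by limma, where 6.08% of all genes did. Its mean was 131.8 ± 11.04 CPM in KO/YAP and 109 ± 9.29 CPM in WT/GFP (SD, n = 4 each), a log2 difference of 0.28 (95% interval 0.05 to 0.50, limma adjusted p = 0.754). For Dpt the difference from WT/GFP was 0.10 (-0.11 to 0.30), for Dcn 0.18 (-0.03 to 0.39), for Postn -0.07 (-0.59 to 0.44) and for Tnc -0.29 (-0.91 to 0.32). The intervals of Dpt, Lum, Dcn and Postn lie above the estimates for KO/GFP against WT/GFP, while that of Tnc includes its estimate.

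Other genes of the same cells and pathways were counted in lists chosen for their function. Their counts are read against the shares of all genes that limma called in the same direction, 3.46% lower and 3.23% higher in uninjected KO, 7.22% lower and 6.43% higher in KO/GFP, and 7.85% higher and 6.92% lower in KO/YAP against KO/GFP. These shares are a scale and not a test, since the lists were chosen with earlier results of these data known. The medians of the lists stand beside medians of 0.00, -0.01 and 0.01 on the log2 scale over all genes in the same 3 comparisons.

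Among 8 genes of collagens I, III, V and VI, which fibroblasts secrete, 3 were called lower in uninjected KO hearts, Col3a1 (-0.90), Col1a2 (-0.79) and Col1a1 (-0.79), with a list median of -0.46. In KO/GFP all 8 were called lower, with a median of -0.60 on the log2 scale and Col3a1 (-0.99), Col6a3 (-0.80), Col6a1 (-0.47) and Col1a2 (-0.73) leading by p, and in KO/YAP all 8 were called higher than in KO/GFP, with a median of 0.71. The interaction was called for all 8 as well. The count in KO/GFP fell from 8 to 5 without KO/GFP replicate 4 or with only these 2 groups in the fit, and the uninjected count rose from 3 to 5 without KO replicate 4.

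Among 20 other genes linked to resting fibroblasts, 3 were called lower in uninjected KO hearts, Islr (-1.14), Cd248 (-0.63) and Pi16 (-0.86), and 1 higher, Dpep1 (2.18), a membrane dipeptidase. KO/GFP had 7 lower and 1 higher, led by Islr (-1.34), Dpep1 (2.39), Pi16 (-1.47) and Mfap5 (-0.97), a microfibril protein. KO/YAP had 8 higher than in KO/GFP and 1 lower, led by Islr (1.38), Pi16 (1.67), Mfap5 (1.12) and Dpep1 (-2.31). The medians of the list were -0.21, -0.22 and 0.42, and its summed level overlapped between all groups, from 1118 to 1736 CPM in the injected hearts. Dpep1 moved against the other called genes of its list in all 3 comparisons. In uninjected hearts only 1 gene was called lower without KO replicate 2 or 3, without any 1 of the WT hearts or with the replicate block, and 3 were called higher without KO replicate 4 and 4 by DESeq2. The higher count in KO/GFP was 2 by DESeq2 and without KO/GFP replicate 2 or 3.

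Among 20 genes linked to activated fibroblasts, 19 could be tested in uninjected hearts and 4 were called lower there, Cilp (-0.92), Cthrc1 (-1.39), Fap (-1.24), a membrane protease of activated stroma, and Meox1 (-0.83), a transcription factor. Without uninjected KO replicate 4 the count was 8. In KO/GFP 7 were lower and 2 higher, led by Fap (-1.31), Cilp (-1.28), Thbs4 (0.76) and Cthrc1 (-1.20), and only 2 were lower with just these 2 groups in the fit and 4 without KO/GFP replicate 1, KO/GFP replicate 4 or WT/GFP replicate 1. The higher count there was 1 without KO/GFP replicate 1 or 4 or WT/GFP replicate 1, 2 or 4. In KO/YAP 9 were higher than in KO/GFP and 1 lower, led by Fap (1.47), Acta2 (1.26), which encodes smooth muscle actin, Cilp (1.76) and Cthrc1 (1.13). With only these 2 groups in the fit 5 were higher and none lower. The lower count was also 0 without KO/GFP replicate 1 or 4 or KO/YAP replicate 1 or 2, and 2 without KO/GFP replicate 2 or 3. The medians of the list were -0.20, -0.41 and 0.52. Without 1 library at a time they ran from -0.44 to -0.18, from -0.49 to -0.3 and from 0.38 to 0.56.

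Of the leucine-rich proteoglycans other than Dcn and Lum, 6 of 10 were tested. Ogn (-0.77) and Fmod (-0.77) were lower in uninjected KO hearts and Ogn (-0.94) and Aspn (-0.38) in KO/GFP, and Ogn (0.80) and Aspn (0.36) were higher in KO/YAP than in KO/GFP. Bgn, Prelp and Podn were called in none of these, and the medians were -0.02, -0.24 and 0.26. Of 9 matricellular genes, Tnxb (-0.47 and -0.63) and Sparcl1 (-0.41 and -0.36) were lower in uninjected KO and in KO/GFP, whereas Tgfbi (0.68 and 0.96) was higher in both and Spp1, which encodes osteopontin, was higher in KO/GFP (1.41). In KO/YAP Tnxb (0.61), Thbs1 (1.61) and Sparcl1 (0.37) were higher than in KO/GFP, and Tgfbi (-1.09) and Spp1 (-1.98) lower. The matricellular medians were -0.19, -0.25 and 0.35. None of the ligands and the second receptor of the PDGF axis was called in any comparison, 5 genes being tested in uninjected and 4 in injected hearts, with medians of -0.14, -0.06 and 0.16. Without KO/GFP replicate 2, 1 of them was called lower in KO/GFP and 1 higher in KO/YAP. Of 15 TGFβ genes 1 was lower in uninjected KO, Ltbp4 (-0.47), which tethers latent TGFβ to the matrix. None was called higher there, but 2 were without KO replicate 1 and 1 was by DESeq2. Ltbp4 (-0.87), Tgfb3 (-0.47) and Tgfb2 (-0.34) were lower and Tgfbr3 (0.79) higher in KO/GFP, and the first 3 were higher in KO/YAP, at 1.03, 0.73 and 0.65. The TGFβ medians were -0.09, -0.14 and 0.25. The counts of these small lists rest on few genes, and without single libraries those lower in uninjected KO ran from 0 to 2 for the proteoglycans, 0 to 3 for the matricellular genes and 0 to 3 for the TGFβ genes, and those lower in KO/GFP from 1 to 2, 1 to 4 and 1 to 3. For KO/YAP the proteoglycan count of 2 higher was 1 without KO/GFP replicate 1 or 4 or KO/YAP replicate 1 or 2 and with only the compared groups, and 1 was called lower without KO/GFP replicate 2. The matricellular count of 3 higher was 5 without KO/GFP replicate 2, and that of 2 lower was 1 over genes with a mean over 5. The TGFβ count of 0 lower was 2 without KO/GFP replicate 2 and 1 by DESeq2, by edgeR and with quantile normalization. Tgfbr3 was the only TGFβ gene called higher in KO/GFP, and the count was 0 in 11 of the 16 fits without 1 library, in limma without the trend and with only the compared groups. That count was 2 by DESeq2, by edgeR and without KO/GFP replicate 2. The matricellular count of genes higher in uninjected KO went from 1 to 0 with the replicate block and without KO replicate 3 or WT replicate 2 or 3. In KO/GFP it went from 2 to 1 without KO/GFP replicate 1 or 4 or WT/GFP replicate 4, over genes with a mean over 5, with a pseudocount of 0.1 and with only the compared groups.

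By limma on all 16 libraries no gene of these lists was called for KO/YAP against WT/GFP or WT/YAP, or for WT/YAP against WT/GFP, while DESeq2 called 1 activated-fibroblast gene higher in KO/YAP in each of the first 2 comparisons, and limma on the compared groups alone called 1 matricellular gene higher in KO/YAP than in WT/YAP. The collagen medians in the 3 comparisons were 0.14, 0.21 and -0.07 on the log2 scale.

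**Figure D3:**
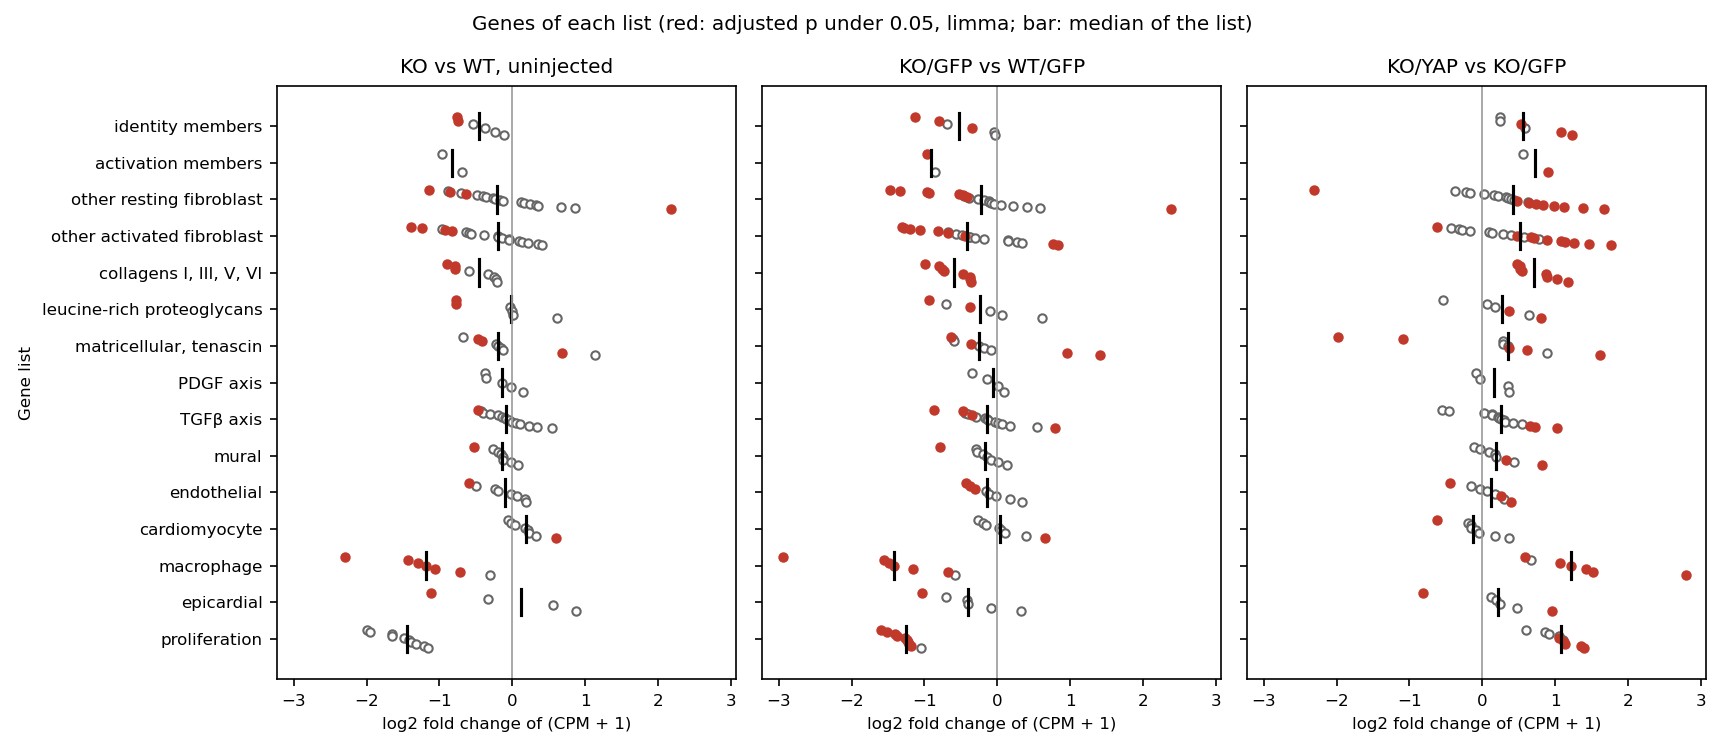
Log2 fold change of CPM + 1 (x axis) of every tested gene in 15 lists (y axis) for 3 comparisons, red where limma called the gene, with the median of each list as a bar. The 8 collagen genes lie left of 0 in the middle panel (median -0.60) and right of 0 in the right panel (median 0.71), and the macrophage and proliferation lists lie further out on the same sides.

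Some markers of other cells moved in the same comparisons, with the most calls in the macrophage list, and their part in these results was not tested. Of 7 macrophage markers tested, 6 were called lower in uninjected KO and in KO/GFP and 6 higher in KO/YAP than in KO/GFP, with medians of -1.18, -1.42 and 1.22 and Cx3cr1 leading (-2.30, -2.94 and 2.79). Their summed level was 78.5 to 98.0 CPM in uninjected WT, 27.8 to 46.2 in KO, 92.6 to 145 in WT/GFP, 27.7 to 74.3 in KO/GFP and 93.9 to 118 in KO/YAP. The uninjected count was 3 without KO replicate 2, without any 1 of the WT hearts or with the replicate block.

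Among 8 endothelial markers Kdr was lower in uninjected KO (-0.60), and Kdr (-0.43), Cdh5 (-0.31) and Tek (-0.38) in KO/GFP, with summed levels of 1565 to 1729 CPM in WT/GFP and 1394 to 1479 in KO/GFP. In KO/YAP Kdr (0.40) and Cdh5 (0.26) were higher than in KO/GFP and Emcn (-0.45) lower, and the endothelial medians were -0.10, -0.14 and 0.12. Of 8 mural markers Myh11 alone was lower in both (-0.53 and -0.78), and Myh11 (0.82) and Rgs5 (0.33) were higher in KO/YAP, with medians of -0.14, -0.17 and 0.19. Of the epicardial markers Aldh1a2 alone was lower in both (-1.11 and -1.03), with summed levels of 85.7 to 106 CPM in WT/GFP and 38.3 to 75.9 in KO/GFP. In KO/YAP Aldh1a2 (0.95) was higher and Krt19 (-0.82) lower, and the epicardial medians were 0.12, -0.41 and 0.21. Of 2 Schwann cell markers tested Ngfr was lower in both (-1.29 and -0.78) and higher in KO/YAP (1.02), with medians of -0.79, -0.40 and 0.50. Of 8 cardiomyocyte markers Tnnt2 was higher in both (0.60 and 0.65) and lower in KO/YAP (-0.62), with medians of 0.19, 0.04 and -0.12, and the summed levels overlapped between WT and KO. Many of these calls changed with single libraries or with the fit. Without single libraries the number called lower in uninjected KO ran from 0 to 2 for the endothelial, 0 to 1 for the mural and 0 to 1 for the epicardial markers. The endothelial count lower in KO/GFP went from 3 to 1 without KO/GFP replicate 1 or WT/GFP replicate 4 and with only the compared groups. For KO/YAP the endothelial higher count went from 2 to 1 in 9 of the 16 fits without 1 library, by edgeR, without the trend, with the block and with only the compared groups, and the lower count from 1 to 0 without KO/GFP replicate 1, 2 or 4 or KO/YAP replicate 1 or 2. The lower epicardial call for KO/YAP was absent in 9 of the 16 fits without 1 library, over genes with a mean over 5 and with only the compared groups, and the count of 2 mural genes was 1 in 6 of them. In KO/GFP the call of Ngfr was absent without KO/GFP replicate 4 or WT/GFP replicate 2 or 4, and that of Myh11 without WT/GFP replicate 1 or 3. Of the cardiomyocyte calls, the uninjected one was absent without KO replicate 2 or 3, without any 1 of the WT hearts, with the block and with quantile normalization. With quantile normalization 2 cardiomyocyte markers were called lower in KO/GFP, and in KO/YAP 1 was called higher and none lower.

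The 8 genes did not vary as one block within groups. Over deviations of log2(CPM + 1) from group means, Pearson's r between Postn and Tnc was 0.98 in the 8 uninjected and 0.86 in the 16 injected libraries, and it stayed between 0.76 and 0.99 when any 1 library was left out. Thy1 went with Postn (0.62 and 0.73) and against Pdgfra (-0.79 in both tables), but in uninjected hearts without KO replicate 3 these values were 0.29 and -0.46. Dcn and Postn also went apart, with -0.80 and -0.67. Pdgfra and Dcn had 0.53 and 0.73, but -0.52 in uninjected hearts without KO replicate 3. The median over the 28 pairs was -0.205 and 0.13. These are descriptions over libraries that share depth and scaling within each library, and in uninjected hearts the SD was larger in KO than in WT for all 8 genes.

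Some of the 8 genes ordered the KO hearts as the proliferation genes did. Of the 10 proliferation genes none was called in uninjected hearts (median log2 difference -1.45, all 10 negative), 9 were called lower in KO/GFP (median -1.25) and 5 higher in KO/YAP than in KO/GFP (median 1.08). Without uninjected KO replicate 4 all 10 were called lower there. The count of 9 was 3 with only the compared groups in the fit, and 5 by edgeR or without KO/GFP replicate 1, WT/GFP replicate 1 or WT/GFP replicate 2. The count of 5 was 2 with only the compared groups and 9 without KO/GFP replicate 2. Their summed level in KO/GFP replicates 1 to 4 was 157, 391.7, 288.2 and 70.2 CPM, while WT/GFP hearts had 451 to 570 CPM. Postn put the 4 KO/GFP hearts in the same order as this sum, and so did Thy1, while Dcn and Pdgfra put them in exactly the opposite order. In uninjected KO hearts Postn and Tnc again followed the order of the sum (replicates 4, 2, 1 and 3, from high to low) and Dcn the reverse. The other fits held in 1 group only, since Thy1 and Pdgfra kept neither order in uninjected KO hearts and Tnc broke it in KO/GFP hearts. Lum, Dpt and Tcf21 followed neither order in either group. The order was looked for after the values were seen, covers 4 hearts in each group and was not tested.

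**Figure D4:**
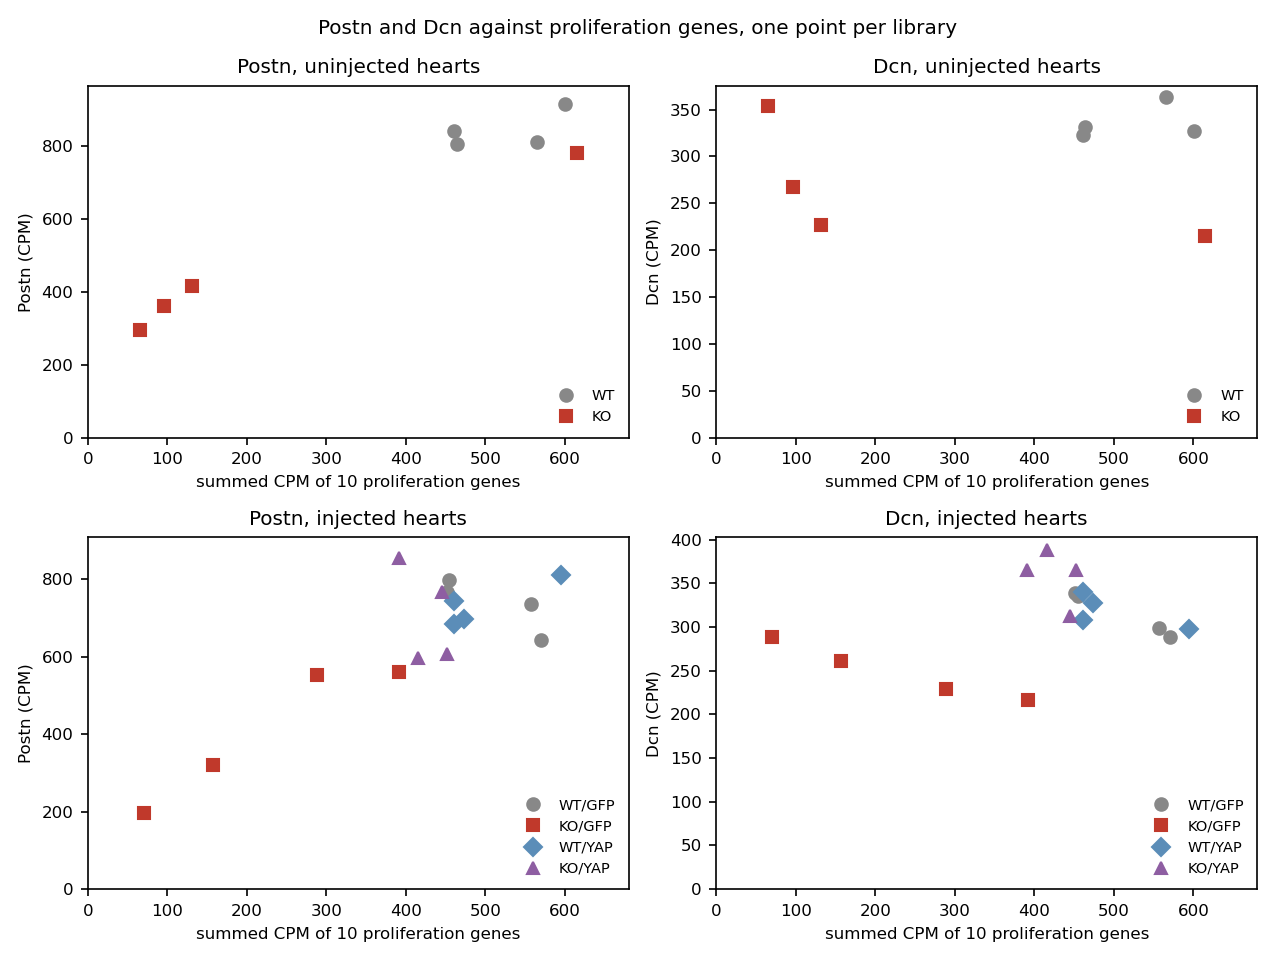
Postn (left) and Dcn (right) in CPM (y axis) against the summed CPM of 10 proliferation genes (x axis) for uninjected (top) and injected (bottom) hearts, with 1 point per library. The red KO points rise to the right for Postn, from 195.7 to 561.2 CPM in KO/GFP, and descend to the right for Dcn, from 288 to 216 CPM.

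The genes whose deviations were most like the mean of the 8 scaled deviations were Olfml3, Cpz, Txndc5, Klhl40 and P3h1 in the 8 uninjected libraries (r = 0.96 for each) and Zdhhc12 (0.92), Ptpn23 (0.87), Kank4 (0.85), Mylk (0.82) and Cmtm3 (0.81) in the 16 injected libraries. The lists from the 2 tables had no gene in common. These genes were picked as the highest of all tested genes, so high values of r follow in part from the selection. The mean also joins members that went apart, such as Dcn and Postn (-0.80 and -0.67), and is not a shared pattern of the 8.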

How the data were processed

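RNA from 24 mouse hearts was sequenced from strand-specific poly A-selected libraries, 50 bp single-end without injection and 150 bp paired-end with it. The authors used Cutadapt 2.3 for trimming, HISAT2 2.1.0 for alignment to GRCm38, StringTie 1.3.4 with its count script for counting and edgeR 3.26.1 for CPM. The deposited values are a normalized signal, CPM whose columns sum to 942566 to 1134439, which was read as CPM on scaled library sizes. Reads recovered from the step of the values were whole in 100% of cases, and symbols came from GENCODE M21 and a gene name table for 15655 of 15667 and 15314 of 15327 identifiers.

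Genes above 1 CPM in 4 or more of the uninjected libraries, or in 8 or more of the injected ones, were tested in each table on log2(CPM + 1) with limma 3.58.1 (trend, two-sided, Benjamini-Hochberg over all tested genes, threshold 0.05). One fit held all 16 injected libraries. The authors' own test was Fisher's exact test. Replicates are separate samples by the labels, and controls were littermates per the methods, but the labels do not tie a heart to a litter. P-values weigh a difference between groups against the spread of these samples within groups. In the injected fit that spread was pooled over all 4 groups. The test was first tried on simulated data.

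The members and gene lists were chosen with earlier results of these data known. The 8 members are described in every comparison. From each list up to 4 called genes per comparison are named in order of adjusted p, with the median of the list, that of all genes being given once, and the 5 genes nearest in pattern are named in each table. Names outside this rule were chosen after their values were seen. Alternatives were edgeR 4.0.16 and DESeq2 1.42.0 on recovered reads, a pseudocount of 0.1, other filters and scalings, no trend, a replicate block, fits of the compared groups alone, and leaving out each library. R was version 4.3.3 and Python 3.11.15.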

Additional observations from a re-analysis of the deposited data

Results flagged for a closer look

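Within groups of 4 hearts, 2 of the 48 sets of values held 1 library far from the other 3 by Dixon's test, where chance would give 2.4. Tnc was at 62.6 CPM in uninjected KO replicate 4, beside 17.3 to 24.8 CPM in the other KO hearts. Lum was at 115 CPM in KO/YAP replicate 2, beside 136 to 139 CPM in the other KO/YAP hearts.

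The effect of the YAP vector differed between KO and WT hearts for 3 genes by the limma interaction term, with 0.51 for Dcn (limma adjusted p = 0.0359), 1.00 for Lum (0.00136) and 1.24 for Dpt (0.000106) on the log2 scale. All 4 KO/YAP hearts lay above all 4 KO/GFP hearts for these genes, while WT/YAP and WT/GFP hearts overlapped.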

How the results depend on the processing

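The differences of Lum and Dpt in the 2 comparisons that involve KO/GFP, their interactions, and Lum in uninjected hearts kept their direction and their calls under every alternative listed for them. With DESeq2 the count of members called in uninjected hearts was 4, not 2, since Thy1 (-0.54, adjusted p = 0.0176) and Postn (-0.86, adjusted p = 0.0236) were called as well, and quantile normalization called Postn (-1.10, limma adjusted p = 0.0406). With the replicate block it was 1, since Dpt had a limma adjusted p of 0.0819. With only the compared groups in the fit the count in KO/GFP against WT/GFP was 2, not 4. Leaving out 1 library at a time gave 1 to 5 members called in uninjected hearts, with 5 without KO replicate 4, and 2 to 5 for the interaction, with 5 without KO/GFP replicate 2. It gave 3 to 5 in KO/GFP against WT/GFP and 3 to 6 in KO/YAP against KO/GFP. Thy1 in KO/GFP against WT/GFP was called by DESeq2 (adjusted p = 0.0471) and by limma over genes with a mean over 5 (0.0484) and with median-ratio scaling (0.0493). Median-ratio scaling moved the mean level in uninjected WT hearts to 21.6 CPM for Tcf21 and 126 CPM for Lum.

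Signs near 0 changed. Pdgfra in KO/GFP against WT/GFP was 0.03 by DESeq2 and edgeR. Postn in WT/YAP against WT/GFP was 0.00 by DESeq2 and with median-ratio scaling and 0.05 with quantile normalization. Without 1 library at a time the log2 differences in WT/YAP against WT/GFP ranged from -0.03 to 0.05 for Dcn, -0.09 to 0.02 for Dpt, -0.02 to 0.13 for Pdgfra, -0.06 to 0.04 for Postn, -0.15 to 0.01 for Tcf21 and -0.16 to 0.07 for Tnc. Pdgfra ranged from -0.17 to 0.22 in KO/GFP against WT/GFP, from -0.01 to 0.38 in KO/YAP against KO/GFP and from -0.05 to 0.33 for the interaction. Tcf21 ranged from -0.20 to 0.13 in KO/GFP against WT/GFP and from -0.27 to 0.04 in uninjected hearts. Postn ranged from -0.17 to 0.00 in KO/YAP against WT/GFP and against WT/YAP. The causes of these changes were not tested.

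Counts over all genes were 1044 in uninjected hearts, but 1955 with DESeq2, 659 over genes with a mean over 5 and 2.47% of the tested genes, against 6.69%, with the block. They were 1993 and 2156 in KO/GFP against WT/GFP and KO/YAP against KO/GFP, but 930 and 1208 with only the compared groups. KO/YAP against WT/GFP had 3 and 24 with DESeq2, KO/YAP against WT/YAP 6, 71 with DESeq2 and 15 with only the compared groups, and the interaction 1104 and 707 with the block. Leaving out 1 library gave 379 to 2098 in uninjected hearts, and edgeR on the recovered reads called 956, 1904 and 2103 genes in the first 3 comparisons and 1033 for the interaction. Replicate numbers did not pair the hearts: correlations of same-numbered deviations were -0.191 to 0.098 over 4 uninjected pairs and -0.171 to 0.137 over 24 injected pairs, and the block changed no other call of a member. With 4 hearts a group the KO against WT intervals of Pdgfra and Tcf21 span 0.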
